A study of Mus musculus with 18 samples.

Results

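The genes described here are the 7 IGF binding proteins, Igfbp1 to Igfbp7, and the 3 IGF2 mRNA binders, Igf2bp1 to Igf2bp3. They were found by symbol, and all 10 were present among the 54838 genes of the table. The RNA came from 18 mouse samples in 6 groups of 3, all of strain C57BL/6 and 36 weeks of age by the sample labels. Wild-type (WT) mice and GKO mice, which lack the Mir181a-1 and Mir181b-1 genes in every tissue, each gave tumours, non-tumour livers and normal livers. Tumours and non-tumour livers came from mice injected once with the liver carcinogen diethylnitrosamine (DEN), at 25 mg/kg on postnatal day 12, and normal livers came from untreated mice. The WT and GKO groups of a tissue differed by genotype alone as far as the labels go, and the labels do not tell which tumour and which non-tumour liver came from the same mouse. The labels do not say either that the 3 samples of a group came from separate mice. A legend in the study's supplement gives separate mice for target gene levels in tumours and non-tumour livers, without naming the libraries, and the normal livers are not mentioned there. For normal livers p-values may therefore measure only the spread between samples.

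IGF1 and IGF2 circulate almost entirely bound to IGF binding proteins, which prolong their life in blood and hold them away from their receptors. The liver is a main source of IGF1 and of several of the binding proteins, and Igfbp1 in hepatocytes is turned on by fasting and cell stress and turned off by insulin. The IGF2 mRNA binders share only a name with them. They are RNA-binding proteins of the embryo that hold mRNAs such as that of IGF2, are mostly silent in adult liver and return in some liver cancers.

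GKO mice lack the microRNA genes Mir181a-1 and Mir181b-1. MicroRNAs act by pairing their seed, bases 2 to 8, with the 3′ end of mRNAs, so the seeds and their matches in the 10 genes are shown first. The study states that this cluster gives most, not all, of the mature miR-181 in human liver cancer. The mature forms need not be absent from GKO mice, and their levels were not measured here. The mature sequences are those of RefSeq on GRCm38.p6, on the plus strand of chromosome 1 at chr1:137966468-137966490 and chr1:137966650-137966673, with the seed in capitals.
miR-181a-5p: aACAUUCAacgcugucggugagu
miR-181b-5p: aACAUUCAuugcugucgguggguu
Both share the seed. Its match was searched in the 3′ untranslated region of 1 transcript per gene in GENCODE mouse release 21 (mm10), as the letters TGAATGT, which pair with bases 2 to 8, with an A after it (TGAATGTA) in the longer form, on the transcript strand. None of the 7 binding proteins had a match. Igf2bp2 had 1 match, at base 29 of 1784, at chr16:22060757-22060764 on the minus strand. Igf2bp1 had 1 match, at base 1338 of 6337, at chr11:95962156-95962162 on the minus strand. Igf2bp3 had none. The matches stand in capitals within their surroundings.
Igf2bp2: caagcaaccgaTGAATGTAgccctcccaac
Igf2bp1: ttatgcctccgTGAATGTcattgttatta
Of 21037 genes with such a region, 3451 (16.4%) held a match, so that 2 of 10 was near the share in all genes. A match is a description of letters and not of regulation.

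TPM are reads per gene length scaled to a fixed total per sample, so that levels may be compared between genes. Multiplied by exonic length they gave back whole reads, of which the samples held 11925055 to 20751348 on genes. These reads carry no molecular identifiers, so a floor on reads covers counting error only, and 3 reads were taken as the floor of detection. Standard errors and intervals of differences come from the limma fits named below and rest on the spread between samples. WT tumours 1 and 2 were closer to each other than other pairs of tumours, with a Pearson's r of 0.982 on log2(TPM + 1) against 0.911 to 0.950 for the other pairs. Differences were tested with limma on log2(TPM + 1) in genes whose mean reached 0.5 TPM, and a gene was called where the p adjusted by Benjamini and Hochberg's method was under 0.05. The 7 binding proteins passed that filter in all comparisons and the 3 RNA binders in none. An exact permutation of 3 against 3 samples cannot give a p below 0.1, whatever the gene.

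Igfbp1 was the member that changed most, and it rose in tumours. The gene (ENSMUSG00000020429, chr11:7197782-7202546, plus strand, mm10) encodes the binding protein that insulin acutely lowers. WT tumours held 2589.8, 2328 and 3716 TPM, and the 3 WT non-tumour livers 13.3, 39.7 and 36.8 TPM. In these tumours Igfbp1 was the 37th to 45th most abundant of all mRNAs. The difference was 6.65 on the log2 scale (standard error 0.45, limma adjusted p = 0.00149), the 8th largest of 14003 genes tested. Of the 7 members tested, 1 was called in this comparison, where 4.23% of all genes were called and 2.16% were called higher. Igfbp1 and Igfbp6 had an unadjusted p under 0.05, 2 of 7 beside 19.9% of genes, and only the Igfbp1 groups did not overlap, 1 of 7 beside 24.8% of genes. In bulk samples, more RNA of a gene per cell and more cells of a type that makes it cannot be told apart. The 6 hepatocyte markers summed to 168677 to 182672 TPM in WT tumours and 69002 to 90046.5 TPM in WT non-tumour livers, mostly Alb and Apoa1. Of the 6, 4 had a higher value in WT tumours, 2 of them at an unadjusted p under 0.05 and 1 called. Their part in the Igfbp1 difference was not tested.

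In GKO tumours Igfbp1 was uneven. GKO tumour 2 held 3782 TPM, as much as any WT tumour, while GKO tumours 1 and 3 held 122 and 216 TPM. All 3 were above the GKO non-tumour livers, with 67.5, 21.2 and 10.7 TPM. The difference from those livers was 4.16 (standard error 1.26, limma adjusted p = 0.0732) and was not called. Of 15 alternatives it was past the threshold in 1, with all 18 samples in one fit (adjusted p = 0.0113), and in the other 14 it was not. Leaving out a library moved the difference between 2.65 and 5.12, with adjusted p from 0.0572 to 0.218. Against WT tumours the difference was -2.60 (standard error 1.18, 95% interval -5.40 to 0.20, limma adjusted p = 0.575), and the groups overlapped through GKO tumour 2. Without that tumour it was -4.11 (adjusted p = 0.0991), without GKO tumour 1 it was -1.64 (adjusted p = 0.759) and without GKO tumour 3 it was -2.05 (adjusted p = 0.889). With both genotypes together, Igfbp1 was 5.40 higher in tumours than in non-tumour livers (standard error 0.81, limma adjusted p = 0.000967). Normal livers held 8.78 to 41.6 TPM in WT and 11.2 to 33.9 TPM in GKO mice, and none of the comparisons among livers without tumour reached an unadjusted p under 0.05 for Igfbp1.

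The promoter of Igfbp1 is known for an insulin response element, a pair of facing A- and T-rich words through which FOXO1 acts, and these words were looked up because the gene carries the largest change. In the RefSeq window of 250 bases before to 50 after the start site (GRCm38.p6), the words CAAAACA and CAAAATA were searched on both strands. Igfbp1 held CAAAACA at base -108, in chr11:7197668-7197696 of the plus strand, and the second word in its reverse form (TATTTTG) at base -97, in chr11:7197679-7197707. The 2 pieces printed overlap, with the word in capitals.
Igfbp1, base -108: gagctcacaagCAAAACAaacttattttg
Igfbp1, base -97: caaaacaaactTATTTTGaacactggggt
The first word or its reverse, TGTTTTG, stood in 6.28% of 32851 promoter windows and the second in 4.36%. Of the other 8 members with a window, none held either word, and no window was given for Igf2bp1.

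**Figure D1:**
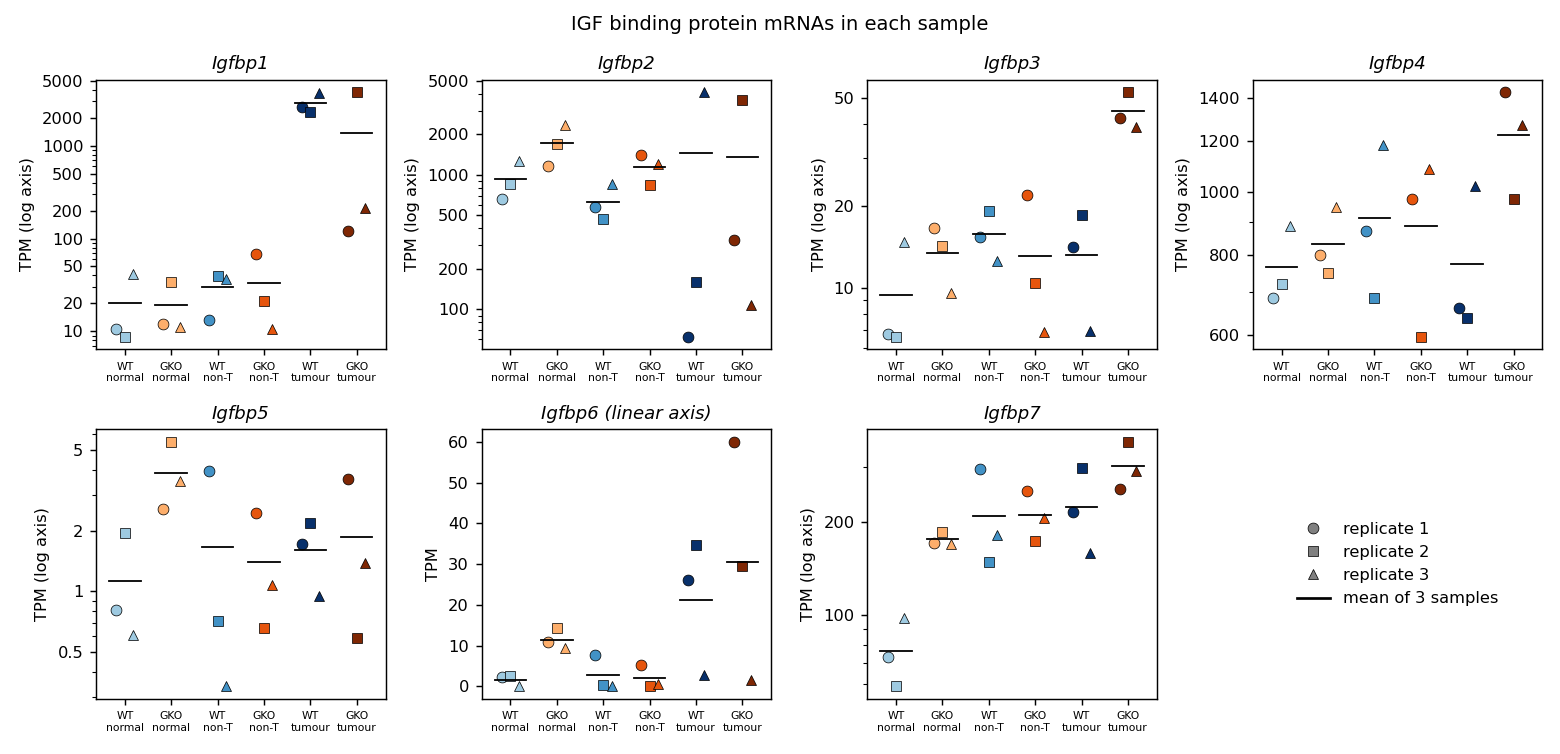
TPM of Igfbp1 to Igfbp7 in each of the 18 samples (log axes, linear for Igfbp6), by group, with replicates as marks and group means as bars. Igfbp1 lies at 122 TPM or more in the 6 tumours and at 67.5 TPM or less in the 12 livers, and Igfbp3 lies at 39.2 TPM or more in GKO tumours only.

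Igfbp2 was the most abundant binding protein mRNA of many livers and scattered most among tumours. It encodes a binding protein that the adult liver makes and insulin restrains. The gene (ENSMUSG00000039323, chr1:72824503-72852474, plus strand) had 665, 849 and 1267 TPM in WT normal livers and 1158, 1696 and 2335 TPM in GKO normal livers. WT non-tumour livers held 578, 468 and 853 TPM and GKO non-tumour livers 1416, 843 and 1207 TPM. GKO livers were thus higher in both tissues, with some overlap, by 0.89 in normal livers (standard error 0.33, unadjusted p = 0.0267) and by 0.88 in non-tumour livers (standard error 0.32, unadjusted p = 0.028), and neither passed the limma adjustment over all genes (adjusted p = 0.999 and 0.643). In non-tumour livers Igfbp2 was the 1 member of 7 with an unadjusted p under 0.05, beside 5.8% of genes, none of the 7 was without overlap, beside 13.2%, and none of the genes was called. The median of all genes within a sample averaged 0.166 lower in the GKO non-tumour livers (-0.166).

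Tumours held Igfbp2 at either end of the range. WT tumours had 62.7, 160.1 and 4141 TPM, and GKO tumours 326, 3625 and 108 TPM. WT tumour 3 and GKO tumour 2 were above every liver, and the other 4 tumours were below every liver. No tumour comparison was called for Igfbp2. The WT tumours differed from WT non-tumour livers by -0.82 (standard error 1.42, limma adjusted p = 0.808), and without WT tumour 3 by -2.60 (adjusted p = 0.0275), in a range of -2.60 to 0.41 over the libraries left out. GKO tumours differed from GKO non-tumour livers by -1.16 (standard error 1.12, adjusted p = 0.497), and without GKO tumour 2 by -2.59 (adjusted p = 0.0294), in a range of -2.59 to -0.05. Between the genotypes the tumours differed by 0.53 (standard error 1.79, adjusted p = 0.947), an interval of -3.71 to 4.77, with the sign set by single tumours.

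The tumours differed widely in the sum of the 7 binding protein mRNAs and in which gene led it. The 7 genes summed to 1444 to 3487 TPM in normal livers and 1360.5 to 2739 TPM in non-tumour livers. WT tumours summed to 3569, 3480 and 9049 TPM, and GKO tumours to 2238, 8826 and 1929 TPM. Igfbp1 made up 41.1% to 72.6% of the sum in WT tumours and 5.44%, 42.8% and 11.2% in the GKO tumours, against at most 2.92% in any liver. Igfbp2 made up 45.8% in WT tumour 3 and 41.1% in GKO tumour 2. In GKO tumours 1 and 3 Igfbp4 led instead, at 63.9% and 66.0% of the sum, against at most 18.5% in the other 4 tumours. In the livers the sum was mostly Igfbp2, at 32.4% to 67.0%, and Igfbp4, at 27.2% to 52.2%.

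**Figure D2:**
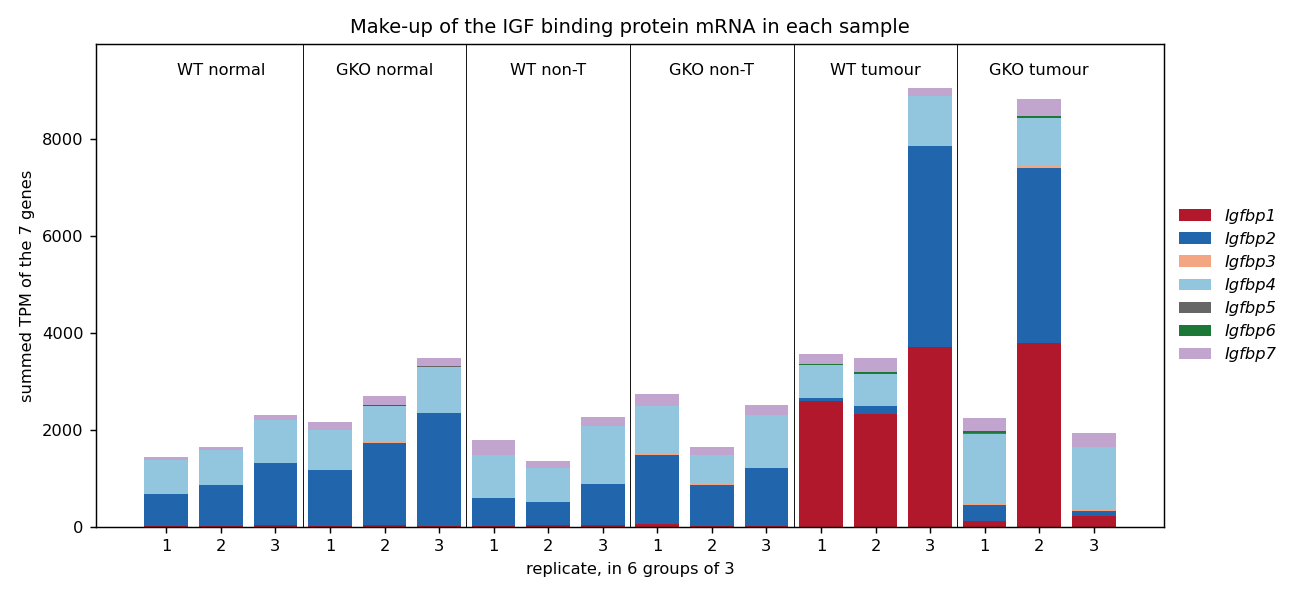
Stacked bars of the TPM of Igfbp1 to Igfbp7 in each sample, by group and replicate. WT tumour 3 and GKO tumour 2 hold the largest sums, 9049 and 8826 TPM, through Igfbp1 and Igfbp2 together.

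Igfbp4 varied least of the 7, from 597 to 1430.3 TPM. It encodes a binding protein that generally restrains IGF action and is cut by the protease PAPP-A. The gene (ENSMUSG00000017493, chr11:99041244-99054392, plus strand) ranged from 597 to 1182 TPM in the 12 livers. WT tumours held 661, 638 and 1022 TPM and GKO tumours 1430.3, 975 and 1273 TPM. GKO tumours were higher by 0.68 (standard error 0.28, unadjusted p = 0.0473, limma adjusted p = 0.559), with the groups overlapping through WT tumour 3.

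Igfbp3 was set apart by GKO tumours. It encodes the main IGF carrier of serum, which joins IGF and the acid-labile subunit in a ternary complex, and in the liver it comes largely from non-parenchymal cells. The gene (ENSMUSG00000020427, chr11:7206086-7213923, minus strand) is the neighbour of Igfbp1. GKO tumours held 42.3, 52.7 and 39.2 TPM, and WT tumours 14.1, 18.5 and 6.95 TPM. The 15 samples outside the GKO tumours lay between 6.61 and 21.9 TPM, so that no other group reached the GKO tumours. Against GKO non-tumour livers, at 21.9, 10.4 and 6.90 TPM, the rise was 1.83 (standard error 0.39, limma adjusted p = 0.0287), and Igfbp3 was the 1 member of 7 called there, where 11.7% of all genes were called and 7.75% were called higher. An unadjusted p under 0.05 was reached by 3 of 7 (Igfbp1, Igfbp3 and Igfbp6), beside 31.7% of genes, and 3 of 7 (Igfbp1, Igfbp3 and Igfbp7) did not overlap, beside 38.3%, so neither share stood out from the background.

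That call was not firm, as it was lost without any single library of the 6 other than GKO non-tumour liver 1, with adjusted p from 0.0609 to 0.102 and log2 differences from 1.49 to 1.92. It was also lost without the filter on low values (adjusted p = 0.0713). The sample medians over all genes averaged 0.235 higher in these tumours, a shift that centring would take off each difference. The call was kept in 9 of 15 alternatives, median centring and quantile normalization among them. Against WT tumours, the difference of 1.77 (standard error 0.35, unadjusted p = 0.00155) missed the threshold with a limma adjusted p of 0.302. No member was called between the genotypes in tumours, where 0.0215% of all genes were called, and 2 members, Igfbp3 and Igfbp4, had an unadjusted p under 0.05, against 8.87% of genes. Igfbp3 was the 1 member whose tumour groups did not overlap, against 14.7% of genes. With the replicate number as a block, no gene was called in this comparison and no member was either.

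Some markers of other cells were higher in the same tumours, and others were not. The summed TPM of 10 markers of stellate cells and fibroblasts was 101 to 191 in GKO tumours, 55.4 to 102 in WT tumours and 51.3 to 75.7 in GKO non-tumour livers. Of the 10, Col1a1, Col1a2, Col3a1, Acta2 and Pdgfrb were called higher in GKO tumours than in GKO non-tumour livers and Dcn lower. The sum of 8 endothelial markers was 175 to 234 TPM in GKO tumours, 124 to 193 in WT tumours and 93.4 to 158 in GKO non-tumour livers. The 5 cholangiocyte markers summed to 37.6, 959 and 549 TPM in GKO tumours 1, 2 and 3, against 22.2 to 53.8 TPM in WT tumours and 30.2 to 53.6 TPM in GKO non-tumour livers. Most of the sum in GKO tumours 2 and 3 was Spp1, a secreted protein that other cells make as well, at 934 and 536 TPM. Of the 4 tested, 3 were higher in GKO than in WT tumours at an unadjusted p under 0.05, with a median of 1.37 beside 0.09 for all genes, and none was called. The 6 macrophage markers summed to 92.4 to 274 TPM in GKO tumours, 86.7 to 161 TPM in WT tumours and 119 to 661 TPM in GKO non-tumour livers. Against WT tumours 5 of the 6 had a higher value (median 0.33, beside 0.09 for all genes), with 0 at an unadjusted p under 0.05. Against GKO non-tumour livers 3 of the 6 had a higher value (median -0.35, beside 0.20 for all genes), and 1 was lower at that p. The part of these cells in the Igfbp3 result was not tested. None of the endothelial and macrophage markers was at 0 in any sample. Acta2 was at 0 in WT normal liver 2, Krt7 in WT tumour 1 and Krt19 in WT tumour 3.

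**Figure D3:**
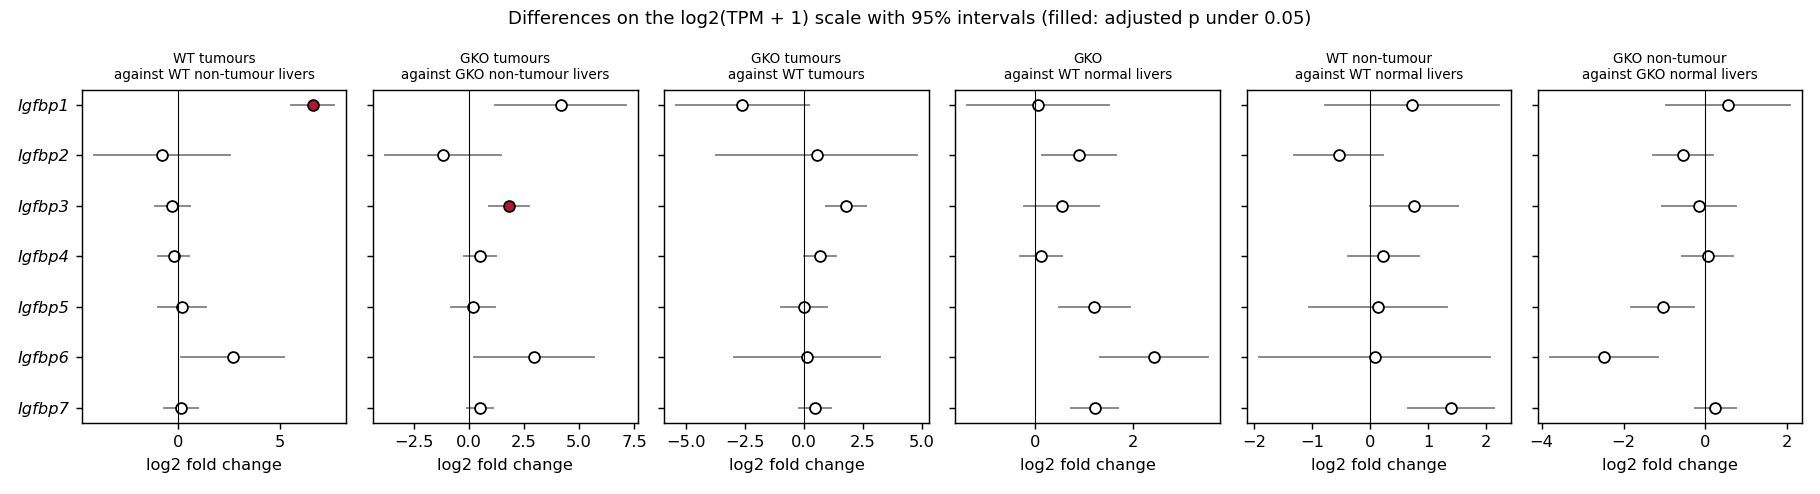
Log2 differences of Igfbp1 to Igfbp7 in 6 comparisons, as points with 95% intervals on log2(TPM + 1), filled where the limma adjusted p was under 0.05. Only Igfbp1 in WT tumours (6.65) and Igfbp3 in GKO tumours (1.83), each against the non-tumour livers of their genotype, are filled.

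Igfbp6, a binding protein with a preference for IGF2, rose in tumours over both genotypes and was high in GKO normal livers. The gene (ENSMUSG00000023046, chr15:102144362-102149511, plus strand) stood at 26.2, 34.8 and 2.75 TPM in the WT tumours. In the GKO tumours it stood at 60.1, 29.6 and 1.64 TPM. WT non-tumour livers held 7.77, 0.440 and 0.107 TPM and GKO non-tumour livers 5.17, 0.115 and 0.558 TPM. These rest on 71, 4 and 1 reads in WT and 45, 1 and 5 reads in GKO mice, some of them at or near the floor. The third tumour of each genotype was within the range of the non-tumour livers, and the other 4 tumours were above every liver. Over both genotypes the rise was 2.81 (standard error 0.85, limma adjusted p = 0.0368), and Igfbp1 and Igfbp6 were the 2 members of 7 called, where 20.1% of all genes were called and 12.2% were called higher. The same 2 were those with an unadjusted p under 0.05, beside 35% of genes, and the sample medians over all genes averaged 0.128 higher in tumours.

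The call of Igfbp6 was lost when any of WT non-tumour livers 2 and 3, GKO non-tumour livers 2 and 3, WT tumours 1 and 2 or GKO tumours 1 and 2 was left out, with adjusted p from 0.0542 to 0.0805 and differences from 2.39 to 2.69. Within each genotype the rise was 2.68 in WT (unadjusted p = 0.0416, limma adjusted p = 0.233) and 2.95 in GKO mice (unadjusted p = 0.0366, adjusted p = 0.132). In GKO mice 1 of 15 alternatives passed the threshold, that without GKO tumour 3 (4.29, adjusted p = 0.041), and leaving out the other libraries gave 2.03 to 3.69, with adjusted p up to 0.312.

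In normal livers Igfbp6, Igfbp7, Igfbp5 and Igfbp2 were all higher in GKO mice, though none passed the adjustment. Igfbp6 was at 10.8, 14.3 and 9.30 TPM in GKO and 2.38, 2.53 and 0 TPM in WT normal livers, the latter from 25 reads at most. Its difference of 2.43 (standard error 0.48, unadjusted p = 0.00109) was the 3rd largest of 13099 genes tested. Igfbp7, which encodes a secreted protein of vessel walls that binds IGF weakly, was at 171, 186 and 169.9 TPM in GKO and 73.1, 59.0 and 97.9 TPM in WT normal livers, a difference of 1.21 (standard error 0.21, unadjusted p = 0.00051). None of the samples overlapped in either gene.

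Igfbp5, a binding protein held in extracellular matrix, was the least abundant of the 7, at 0.338 to 5.52 TPM. The gene (ENSMUSG00000026185, chr1:72857932-72874884, minus strand) is the neighbour of Igfbp2. It was at 2.55, 5.52 and 3.54 TPM in GKO and 0.809, 1.95 and 0.606 TPM in WT normal livers, again with no overlap, a difference of 1.20 (standard error 0.31, unadjusted p = 0.00546). Thus 4 of the 7 members had an unadjusted p under 0.05, against 3.96% of genes, and 3 did not overlap, against 7.95% of genes. By limma's adjusted p none of the 7 was called, nor was any gene (0% of those tested), and voom on the recovered reads called no member either. The lowest adjusted p of a member was 0.668, that of Igfbp7.

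The same normal livers differed in markers of other cells. The stellate cell and fibroblast markers summed to 63.3 to 90.3 TPM in GKO and 39.9 to 48.8 TPM in WT normal livers, and 6 of 10 were higher in GKO livers at an unadjusted p under 0.05. The endothelial markers summed to 90.9 to 112 against 52.8 to 56.7 TPM, with 3 of 8 higher, and the 5 cholangiocyte markers to 82.8 to 92.2 against 33.1 to 50.5 TPM, with 2 of 4 tested higher. Most of the cholangiocyte sum was Spp1, as Krt19, Krt7, Epcam and Sox9 were each at 7.11 TPM or less. Sox9 had the lower mean in GKO livers, 4.42 against 5.22 TPM in WT livers. None of these markers passed the adjustment. Their part in the values of Igfbp5, Igfbp6 and Igfbp7 was not tested.

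The GKO normal livers also stood above the GKO non-tumour livers in Igfbp6 and Igfbp5. The non-tumour livers were lower by 2.48 in Igfbp6 (-2.48, standard error 0.57, unadjusted p = 0.00254) and by 1.05 in Igfbp5 (-1.05, standard error 0.34, unadjusted p = 0.014), at limma adjusted p of 0.737 and 0.856. These 2 of 7 members compare with 5.20% of genes at an unadjusted p under 0.05 and with 8.73% whose groups did not overlap, and none of the genes (0%) was called. The sample medians over all genes averaged 0.107 higher in the non-tumour livers. This comparison and the former share the GKO normal livers. Markers of other cells differed here too. The cholangiocyte markers summed to 30.2 to 53.6 TPM in GKO non-tumour livers against 82.8 to 92.2 TPM in GKO normal livers, and 3 of 4 tested were lower at an unadjusted p under 0.05 (median -0.84, beside 0.08 for all genes). Most of that sum was Spp1 in both groups, with Krt19, Krt7, Epcam and Sox9 each at 7.19 TPM or less. The stellate cell markers summed to 51.3 to 75.7 against 63.3 to 90.3 TPM, with 1 of 10 lower at that p and a median of -0.38. All 6 macrophage markers had higher values in the non-tumour livers (median 1.05), none of them at that p. The part of these cells in the 2 differences was not tested.

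Igfbp7 (ENSMUSG00000036256, chr5:77349240-77408041, minus strand) was lowest in WT normal livers and higher in all other groups. WT non-tumour livers held 295, 148 and 181.3 TPM, GKO non-tumour livers 250.5, 174 and 206 TPM, WT tumours 214, 298 and 159 TPM and GKO tumours 254, 362 and 291 TPM. All 15 samples outside the WT normal livers were above them. WT non-tumour livers exceeded WT normal livers by 1.40 (standard error 0.32, unadjusted p = 0.00294, limma adjusted p = 0.118). Here the sample medians over all genes averaged 0.376 higher, and after centring on them the difference was 1.02. No member was called in this comparison (0.00744% of genes were), 1 of 7 had an unadjusted p under 0.05, against 24.4% of genes, and 1 of 7 did not overlap, against 33.9%. The endothelial markers summed to 52.8 to 56.7 TPM in WT normal livers and 105 to 147 TPM in WT non-tumour livers, and 4 of 7 tested were higher at an unadjusted p under 0.05 (median 0.75, beside 0.32 for all genes). The macrophage markers summed to 86.1 to 111 and 144 to 418 TPM, with 4 of 6 higher at that p (median 1.18). The stellate cell markers summed to 39.9 to 48.8 and 45.8 to 68.2 TPM, with 4 of 10 higher at that p. None of these markers was called, and their part was not tested. A short stretch of Igfbp7, 85 of its 1209 exonic bases, is also covered by Polr2b on the other strand, and the counting is not stated to use strand.

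Whether the genotype effect differed between tissues was tested as an interaction. Between tumours and non-tumour livers Igfbp3 gave 2.14 (standard error 0.57, unadjusted p = 0.003, limma adjusted p = 0.417), and it was the 1 member of 7 with an unadjusted p under 0.05, against 10.5% of genes. For Igfbp1 the same term was -2.49 (standard error 1.52, unadjusted p = 0.128). Between non-tumour and normal livers Igfbp7 gave -1.15 (standard error 0.38, unadjusted p = 0.0113) and Igfbp6 -2.55 (standard error 1.14, unadjusted p = 0.0458), at an adjusted p of 0.724 each. These 2 of 7 compare with 6.15% of genes. No member was called in either, where 0.0142% and 0% of genes were. The sample medians over all genes moved by 0.219 and by -0.269 in the 2 terms.

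The IGF2 mRNA binders were scarce in all 18 samples, at 0.562 TPM or less. Igf2bp1 exceeded the floor of 3 reads in 1 sample, Igf2bp3 in 3 samples and Igf2bp2 in 11. Igf2bp1 (ENSMUSG00000013415, chr11:95957163-96005940, minus strand) had 10 reads in all, in 4 samples, and none in any WT sample. A count of 0 allows up to 3 reads per library. Igf2bp3 (ENSMUSG00000029814, chr6:49085223-49214957, minus strand) had 26 reads in all, in 9 samples, with 6 in the highest, and 1529 of its 8159 exonic bases are shared with Malsu1 on the other strand. Neither was detected above the floor in any tumour.

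Igf2bp2 (ENSMUSG00000033581, chr16:22059009-22163299, minus strand), the binder that adult tissues retain, was the only member of the 3 with more than 6 reads in a sample. WT tumours had 4, 7 and 2 reads and GKO tumours 1, 2 and 3, so that all 3 GKO tumours were at the floor. The WT non-tumour livers had 15, 2 and 16 reads and the GKO non-tumour livers 16, 4 and 16. WT normal livers had 3, 37 and 0 reads, and the 37 reads were its highest value, at 0.562 TPM. GKO normal livers had 4, 14 and 8 reads. Summed over 6 libraries each, tumours had 19 reads of 112696286, non-tumour livers 69 of 96636453 and normal livers 66 of 93543488. Igf2bp2 carries a seed match shown above, and at these counts a genotype difference in its level was not detectable.

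**Figure D4:**
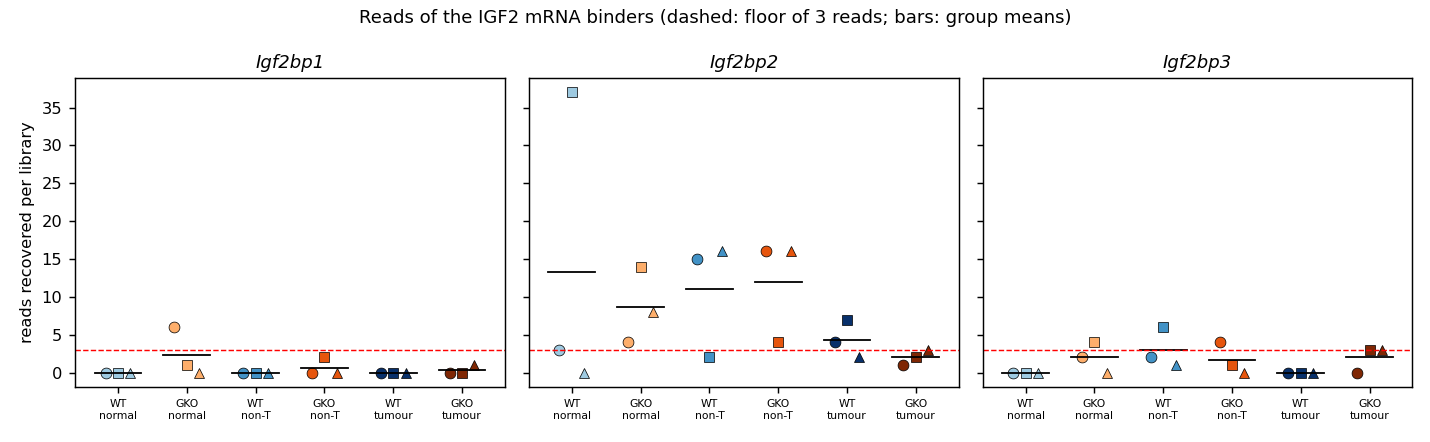
Reads of Igf2bp1, Igf2bp2 and Igf2bp3 recovered in each library, by group, with group means as bars and the floor of 3 reads as a dashed line. Igf2bp2 reaches 37 reads in a WT normal liver and 7 at most in a tumour, and the other 2 genes reach 6 reads at most.

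RNAs that these proteins bind, or that are expressed with them in the embryo, were looked at in a list of 9 genes. H19, a fetal non-coding RNA that the binders are known to hold, was at 455, 538 and 5.43 TPM in WT tumours. The GKO tumours held 1005, 145 and 1679.9 TPM, against 3.71 TPM or less in the 12 livers. It rose by 8.60 in GKO tumours against GKO non-tumour livers (standard error 0.82, limma adjusted p = 0.00417). H19 was the 1 gene of 5 tested that was called there, beside 11.7% of all genes called and 7.75% called higher. In WT tumours none of the 5 was called by limma, beside 4.23% of all genes. There 1 of the 5 was higher at an unadjusted p under 0.05, beside 19.9% of genes at that p in either direction. Lin28a and Lin28b, fetal regulators expressed with the binders, had 2 reads at most in any sample. Igf2 was listed at 7 reads or fewer in all samples, and 62.8% of its exonic bases belong also to Gm49394, a gene on the same strand, so that reads on both could have been left uncounted.

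Of the partners of the binding proteins, Igf1 fell in tumours of both genotypes. Igf1, the growth hormone-driven ligand made by hepatocytes, was at 3.22, 3.15 and 21.2 TPM in WT tumours and 107, 63.2 and 115 TPM in WT non-tumour livers, a change of -3.67 (standard error 0.67, limma adjusted p = 0.033). GKO tumours held 29.4, 32.9 and 86.0 TPM and GKO non-tumour livers 146, 176 and 188 TPM, a change of -1.92 (standard error 0.41, adjusted p = 0.029). No tumour overlapped with the non-tumour livers of its genotype. GKO tumours were above WT tumours by 2.62, without overlap (unadjusted p = 0.0088, adjusted p = 0.416).

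Of 15 partners, 9 were tested in tumours against non-tumour livers of both genotypes, and 3 fell and 2 rose, 5 of 9 beside 20.1% of all genes called. Igfals, the acid-labile subunit that joins IGF and Igfbp3 in serum, fell by 1.39 (limma adjusted p = 0.0367) and the growth hormone receptor Ghr fell by 1.23 (adjusted p = 0.00298). Htra1, a protease that cuts IGF binding proteins, rose by 1.14 (adjusted p = 0.0174) and Stc1, an inhibitor of the proteases that cut Igfbp4, rose by 0.79 (adjusted p = 0.024). Stc1 was low, with means of 0.330 and 0.0203 TPM in WT and GKO non-tumour livers. It passed the filter only through the tumours, with means of 0.849 TPM in WT and 1.19 TPM in GKO, so its calls are no support for a rise. WT non-tumour liver 2 held 0.905 TPM of Stc1, above WT tumours 1 and 3. The median of the 9 was 0.17, beside 0.08 for all genes tested. In WT mice 1 of 9 was called, Igf1, beside 4.23% of all genes. In GKO mice 3 of 9 were called, Igf1, Htra1 and, with the same limit, Stc1, beside 11.7%. Among the receptors, Insr ranged from 8.23 to 19.2 TPM over all samples and Igf2r, which takes up and clears IGF2, from 4.76 to 16.8 TPM, and neither was called in any comparison. Igf1r, the receptor through which IGF1 signals, was low, and its mean reached the filter only in GKO non-tumour against GKO normal livers. It stood at 0.685, 0.539 and 0.476 TPM in GKO and 0.289, 0.214 and 0.234 TPM in WT normal livers. In non-tumour livers it stood at 0.570, 0.471 and 0.384 TPM in GKO and 0.341, 0.146 and 0.299 TPM in WT mice. Neither pair of groups overlapped, while the tumours did, at 0.251, 0.517 and 0.268 TPM in GKO and 0.238, 0.297 and 0.128 TPM in WT mice. Of the genes tested between genotypes, 7.95% did not overlap in normal livers and 13.2% in non-tumour livers. Igf1r was under the filter in both and has no test there.

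**Figure D5:**
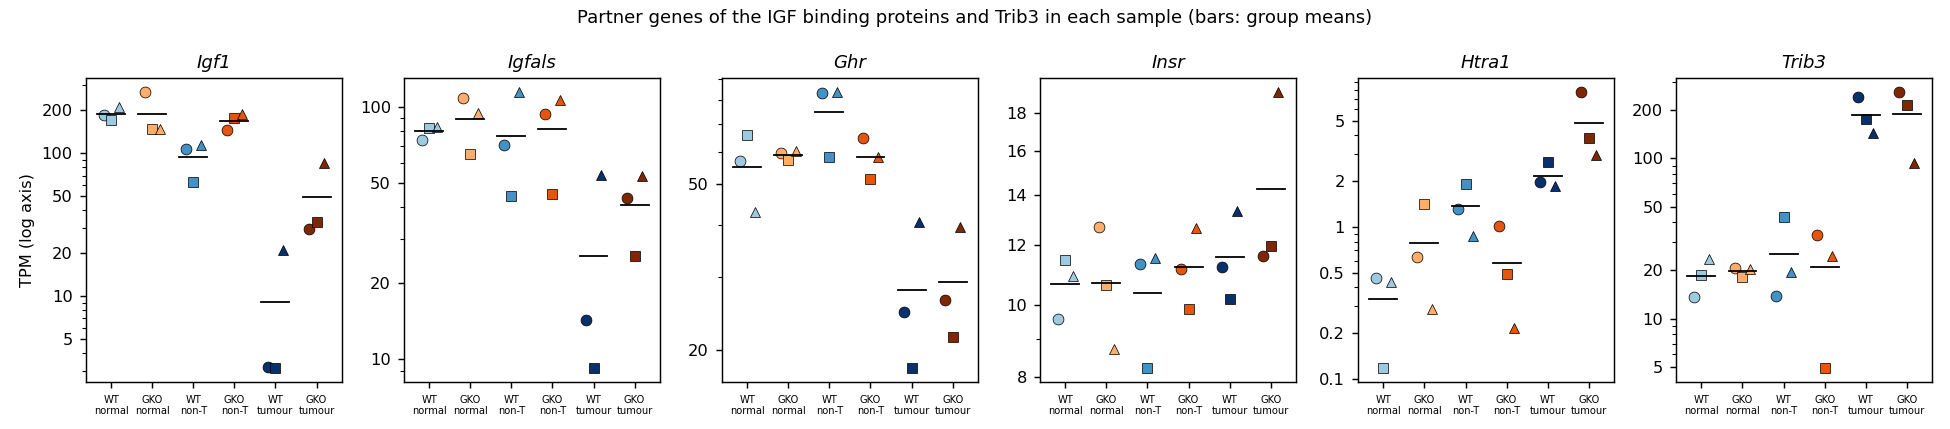
TPM (log axes) of Igf1, Igfals, Ghr, Insr, Htra1 and Trib3 in each sample by group, with marks for replicates and bars for group means. Igf1 lies at 86.0 TPM or less in tumours, with WT tumours at 3.15 to 21.2 TPM, and Trib3 at 93.6 TPM or more in tumours and 42.9 TPM or less in livers.

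Igfbp1 answers to fasting, insulin and cell stress, and 11 genes that answer with it were tested. Over both genotypes the stress genes Trib3 (3.14, limma adjusted p = 0.000621), Ddit3 (2.41, adjusted p = 0.0314) and Atf4 (0.64, adjusted p = 0.0414) rose in tumours, 3 of 11 beside 20.1% of all genes called and 12.2% called higher. None of the 11 was called lower, and 7 had a higher value in tumours. Their median was 0.50, beside 0.08 for all genes. Trib3, a pseudokinase that the stress factors ATF4 and CHOP turn on, stood at 242, 176 and 143 TPM in WT tumours. The GKO tumours held 258, 216 and 93.6 TPM, against 4.92 to 42.9 TPM in the livers. Ddit3, which encodes the stress factor CHOP, was uneven, with 152, 142 and 17.1 TPM in the 3 WT tumours. The 3 tumours of GKO mice held 382, 76.3 and 14.9 TPM. The third tumour of each genotype was within the range of the livers, 6.45 to 26.2 TPM. The gluconeogenic genes Pck1 and G6pc were not called. In GKO tumours against GKO non-tumour livers the lipogenic factor Srebf1 rose by 1.79 (adjusted p = 0.0372).

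The genes whose levels followed each member most closely were found by Pearson's r of log2(TPM + 1) over the 18 samples, which share groups and tissue, among 11897 genes. Igfbp1 was followed by Klrb1b (r = 0.970), a lectin-like receptor of natural killer cells, at 58.6, 58.1 and 82.6 TPM in the WT and 2.87, 61.6 and 8.26 TPM in the GKO tumours and at most 0.495 TPM in livers, and by Itih5 (r = 0.967), a hyaluronan-binding protein of the matrix. Itih5 was at 5.03, 32.9 and 14.2 TPM in the GKO tumours, the order of Igfbp1 there, but at 37.6, 37.4 and 32.2 TPM in the WT tumours, where it was lowest in WT tumour 3 and Igfbp1 was highest. For Igfbp2 they were Prodh2 (r = 0.855) and Serinc2 (r = 0.814), and for Igfbp3 the actin crosslinker Flna (r = 0.913) and the mitochondrial carrier Slc25a4 (r = 0.903). Igfbp4 was followed by Lurap1l (r = 0.919) and the clock gene Ciart (r = 0.899). Igfbp5 was followed by Msln (r = 0.843), the mesothelial protein mesothelin, which reached 7.52 TPM in GKO normal livers and at most 0.697 TPM in WT normal livers, and by the pseudogene Rpl7-ps7 (r = 0.677). Igfbp6 was followed by the collagen-processing factor Pcolce (r = 0.821) and Ltbp3 (r = 0.810), and Igfbp7 by the chemokine Cxcl16 (r = 0.910) and Kank3 (r = 0.904). These correlations describe the 18 samples and carry no test.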

How the data were processed

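RNA of 18 mouse liver and tumour samples was sequenced. The authors aligned reads to mm10 with STAR 2.7.3a and counted them with featureCounts 2.0.0, by their methods and processing notes, and deposited TPM for 54838 genes. The annotation and the TPM calculation are not given in the sources used here. A count of each gene that shares bases with another gene may be low or mixed for that reason. 0 columns lacked a sample, and no 2 samples were identical. TPM multiplied by the exonic lengths of GENCODE mouse release 21, which held 54809 genes, gave whole reads (within 0.02) in at least 97.95% of values up to 30 reads of every sample, and a total of 11925055 to 20751348 reads per sample. Depth limited only genes near 3 reads.

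Tests used limma 3.58.1 under R 4.3.3 (lmFit, then eBayes with trend) on log2(TPM + 1) over all genes whose mean reached 0.5 TPM, each comparison on its own samples, with Benjamini-Hochberg adjustment over all genes tested. Because 1 is added, log2 differences of low genes are understated. Lists were described by counts and medians. All 10 members are named, and of each list up to 6 called genes of lowest adjusted p per comparison. A called list gene is not reported here. For each binding protein the 2 genes of highest Pearson's r among those with a mean of at least 1 TPM are also named. Other list genes were named after their values were seen. A symbol listed more than once was taken at its entry of higher mean. The members, lists and comparisons were chosen with earlier results of these data known.

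Same-numbered samples were checked for pairing by the correlation of their deviations from group means. Only GKO against WT tumours had every pair over 0.1 (0.101, 0.12 and 0.197), although they are different animals by genotype. As alternatives, the pseudocount was 0.1, the filter was left out or raised to 5 TPM, values were centred on sample medians or quantile normalized, all 18 samples shared a fit, eBayes had no trend, voom was run on recovered reads, the replicate number was a block, WT tumours 1 and 2 were averaged, and each replicate was left out. The procedure was tested on simulated data. Figures were drawn with Python 3.11.15, numpy 2.4.6, pandas 2.3.3 and matplotlib 3.10.9.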

Additional observations from a re-analysis of the deposited data

How the results depend on the processing

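Igfbp1 stayed called as higher in WT tumours, and in tumours of both genotypes together, under every alternative run, with adjusted p from 0.000456 to 0.0127 and from 6.33e-05 to 0.0039. The number of members called in WT tumours against WT non-tumour livers was 1, and 1 to 2 with a replicate left out. In GKO tumours against GKO non-tumour livers it was 1, and 0 without the filter, 2 with all 18 samples in one fit and 0 to 1 with a replicate left out. In tumours against non-tumour livers of both genotypes it was 2, and 1 without the filter, with voom and with WT tumours 1 and 2 averaged, and 1 to 2 with a replicate left out. The cause was not tested. With WT tumours 1 and 2 averaged, Igfbp2 changed sign, to -0.44 between GKO and WT tumours and to 0.15 between WT tumours and non-tumour livers, and with a replicate left out it lay between -0.89 and 2.32 and between -2.60 and 0.41.

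The replicate block changed no call of a member, and the count stayed at 0 between GKO and WT tumours, 1 in each tumour comparison within a genotype and 2 over both genotypes. Over all genes it lowered the count between GKO and WT tumours from 3 to 0, in WT tumours against WT non-tumour livers from 592 to 361 and in WT non-tumour against WT normal livers from 1 to 0. The same counts ran from 0 to 147, from 163 to 1533 and from 0 to 4 over all alternatives. In GKO tumours against GKO non-tumour livers the count was 1652 and ran from 229 to 2627, and over both genotypes it was 2829 and ran from 1662 to 3797. The count was 2 for the tumour interaction, from 0 to 91, and 0 for GKO non-tumour against GKO normal livers and for the other interaction, each from 0 to 2. Of the called genes in GKO tumours 66.1% were higher, but 44.0% after median centring and 52.0% after quantile normalization, and over both genotypes 60.8%, 44.5% and 51.7%. Depth limits the 3 IGF2 mRNA binders, and also Igfbp6 in those livers where its reads were at or near the floor.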
